A study of Mus musculus and Mus musculus
Rattus norvegicus with 30 samples.

Results

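The mouse genome of rat-mouse allodiploid embryonic stem cells (RMES) carried 13355 Cdx2 peaks on chromosomes 1 to 19 that overlapped no Cdx2 peak of mouse embryonic stem cells (mESCs) by a single base. They made up 19.3% of the 69123 RMES peaks on these chromosomes, and the RMES table held 74650 mouse-genome peaks in all. The other 55768 autosomal peaks overlapped 1 of the 86450 autosomal mESC peaks and are called shared below. The 13355 RMES-only peaks were selected on the peak calls themselves, so their absence from the mESC list and their strength are descriptions and were not tested.

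RMES cells were made by fusing haploid mouse and haploid rat embryonic stem cells and hold a chromosome set of each species. The ChIP-seq libraries were mCDX2 OE in RMES and rCDX2 OE in RMES, 1 library each, from lentiviral lines in which doxycycline switched on Flag-tagged mouse Cdx2 (mCdx2) or rat Cdx2 (rCdx2), and the antibody was against Flag. mESCs had the same constructs with 1 ChIP-seq library each, and ATAC-seq of 1 WT and 1 mCDX2 OE library. RNA-seq came from WT RMES (2 libraries), mCDX2 OE in RMES (1) and rCDX2 OE in RMES (1), and from WT, mCDX2 OE and rCDX2 OE mESCs (2 libraries each). In every group reads were counted on the mouse genome, build mm10. The labels call the controls WT. The study's text speaks of mESCs before and after doxycycline, so mESC controls may be uninduced transgenic cells, and for RMES this is not stated. Nor is it stated whether libraries of 1 group came from separate cultures, so p-values measure the spread between libraries, which may be technical.

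Cdx2 is a homeobox transcription factor that marks the trophectoderm, the outer layer of the early embryo that forms the placenta, and it later patterns the posterior body axis and the intestinal epithelium. It binds short AT-rich sequences that end in ATAAA. Forced expression of Cdx2 in embryonic stem cells drives them out of pluripotency towards trophoblast-like cells, and ATAC-seq reads out which sites are accessible in chromatin.

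The sequences of 10 RMES-only peaks are shown as the 200 bases at their centre on the plus strand of RefSeq GRCm38 (mm10). Capitals mark the Cdx2 motif on either strand, counted here as CCATAAA, as CAATAAA with an A in the second place, or as the longer form GTAATAAA. Other forms that end in ATAAA, such as TCATAAA, were not counted, so all motif shares refer to the counted forms. The first sequence was the strongest RMES-only peak and had no motif. The second sequence was the strongest one that had any, among the immunoglobulin heavy chain variable (Ighv) genes. The Trim55 and Zpld1 members overlapped mESC ATAC peaks that gained reads with mCdx2, the Trim55 member only at the edge. The Tandem repeat member was the most unequal between the libraries, and the Unc80 member had the next lowest ratio of mCdx2 to rCdx2. The HoxA member lay between the homeobox genes of that cluster, and the last 3 lay near Ntn1, Il1r1 and Igf2, genes without an mESC Cdx2 peak whose RNA is described further on.
Strongest member, chr1:114316892-114317091: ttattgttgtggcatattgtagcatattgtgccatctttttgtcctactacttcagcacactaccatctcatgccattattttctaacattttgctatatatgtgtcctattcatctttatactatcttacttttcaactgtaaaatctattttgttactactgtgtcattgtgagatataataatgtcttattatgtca
Ighv member, chr12:113804780-113804979: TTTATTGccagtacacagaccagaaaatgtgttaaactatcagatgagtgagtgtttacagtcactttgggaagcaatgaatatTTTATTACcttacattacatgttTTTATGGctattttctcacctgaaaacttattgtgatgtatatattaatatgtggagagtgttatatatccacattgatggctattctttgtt
Trim55 member, chr3:19640453-19640652: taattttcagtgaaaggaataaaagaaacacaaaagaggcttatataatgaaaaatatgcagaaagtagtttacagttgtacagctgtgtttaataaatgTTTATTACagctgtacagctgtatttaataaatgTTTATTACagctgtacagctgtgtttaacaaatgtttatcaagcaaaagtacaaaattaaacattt
Zpld1 member, chr16:55239196-55239395: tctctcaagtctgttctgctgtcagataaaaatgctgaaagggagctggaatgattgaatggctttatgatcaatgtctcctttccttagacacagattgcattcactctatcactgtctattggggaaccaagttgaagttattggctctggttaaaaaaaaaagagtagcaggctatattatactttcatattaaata
Tandem repeat member, chr19:3441779-3441978: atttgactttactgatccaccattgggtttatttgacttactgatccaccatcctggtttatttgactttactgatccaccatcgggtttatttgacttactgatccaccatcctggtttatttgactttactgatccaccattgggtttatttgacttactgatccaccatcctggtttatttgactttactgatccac
Unc80 member, chr1:66627920-66628119: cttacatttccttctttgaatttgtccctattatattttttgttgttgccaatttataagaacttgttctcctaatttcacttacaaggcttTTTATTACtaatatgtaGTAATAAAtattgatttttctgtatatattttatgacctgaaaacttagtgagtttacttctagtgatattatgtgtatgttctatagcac
HoxA member, chr6:52213339-52213538: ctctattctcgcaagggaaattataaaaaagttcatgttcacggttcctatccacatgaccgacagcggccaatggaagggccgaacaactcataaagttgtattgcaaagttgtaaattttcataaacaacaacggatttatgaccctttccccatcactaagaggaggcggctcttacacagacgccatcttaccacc
Ntn1 member, chr11:68396690-68396889: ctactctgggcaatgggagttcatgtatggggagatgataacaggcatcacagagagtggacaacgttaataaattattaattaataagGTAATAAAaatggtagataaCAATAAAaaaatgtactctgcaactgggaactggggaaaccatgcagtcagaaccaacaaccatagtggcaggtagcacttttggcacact
Il1r1 member, chr1:40203253-40203452: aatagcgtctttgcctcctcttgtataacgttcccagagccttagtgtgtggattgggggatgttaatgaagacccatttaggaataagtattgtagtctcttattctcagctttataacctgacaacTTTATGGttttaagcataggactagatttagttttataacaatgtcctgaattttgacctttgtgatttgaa
Igf2 member, chr7:142643115-142643314: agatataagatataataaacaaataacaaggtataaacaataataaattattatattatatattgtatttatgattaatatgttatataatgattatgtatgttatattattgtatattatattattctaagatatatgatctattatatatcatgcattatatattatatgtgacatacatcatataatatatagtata

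RMES-only peaks were weaker and shorter than shared peaks in the same libraries. The read counts in an RMES-only peak had a median of 29 with mCdx2 (5th to 95th percentile 17 to 61) and of 23 with rCdx2 (14 to 45), against 49 and 39 in shared peaks. After scaling each library to the mean total of all mouse-genome peaks, the sum over both libraries had a median of 51.2 scaled reads in RMES-only peaks and 88.1 in shared peaks. The distributions overlapped widely, as the plot of peak strength shows, and 343 RMES-only peaks reached 120 scaled reads or more. Median lengths were 262 and 363 bases. RMES-only peaks held 10.0% of the mCdx2 reads in peaks and 9.94% of the rCdx2 reads. The libraries counted 4357448 and 3387074 reads in peaks.

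**Figure D1:**
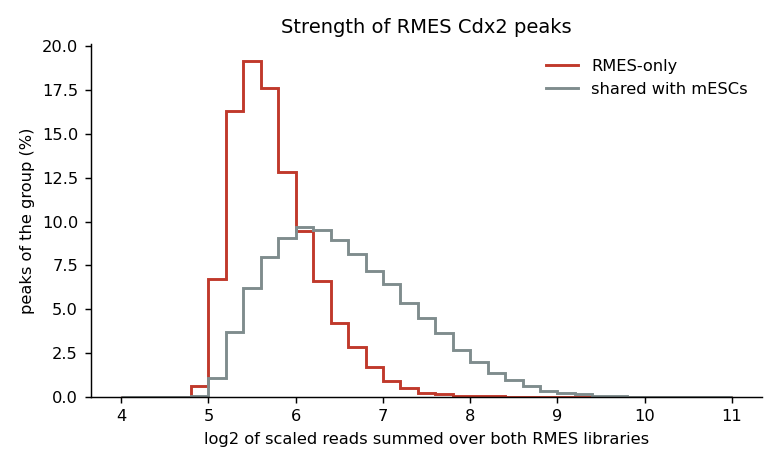
Distribution of peak strength: the x axis is log2 of the scaled reads summed over both RMES ChIP-seq libraries, the y axis the percentage of peaks of each group. RMES-only peaks (13355) lie to the left of shared peaks (55768), with medians of 51.2 and 88.1 scaled reads and a wide overlap.

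The strongest RMES-only peak lay at chr1:114316499-114317483, between genes, with 362 mCdx2 reads and 231 rCdx2 reads. It was 1037 bases from the nearest mESC peak and 1367765 bases from the nearest protein-coding gene start, that of Cntnap5a. Its 585.8 scaled reads compare with 339.6 in the next, on chromosome 18. Among the 10 strongest, a peak at chr12:113804673-113805085 (154 and 169 reads) and one at chr12:115129024-115129982 (141 and 121) lay among Ighv genes, and one at chr1:174076436-174077221 (155 and 106) lay 7503 bases from the olfactory receptor gene Olfr429. A further one lay at chr13:66597703-66599035 (199 and 131 reads), where 87.5% of the central 200 bases were repeat-masked. The peak at chr7:111071883-111072488 (152 and 117 reads) was centred in an exon of Eif4g2, a translation initiation factor. Ighv genes, olfactory receptor genes and repeats have near copies elsewhere in the genome, where the assignment of reads is uncertain. Of the 10 strongest, 413 to 1333 bases long, 2 had a Cdx2 motif in their central 200 bases, and 1 overlapped an mESC ATAC peak.

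RMES-only peaks overlapped no mESC peak by the rule, and their distances to mESC peaks were not set against random positions. The distance to the nearest mESC peak had a median of 9498 bases, 559 peaks (4.19%) were within 500 bases, and 51.6% were within 10000 bases. At the edge of the selection, the closest RMES-only peak was 14 bases from an mESC peak (chr6:146740615-146740891, 35 and 24 reads). On the other side, the shared peak with the smallest overlap shared 1 base (chr15:36082608-36083203, 74 and 37 reads). The share of RMES peaks without an mESC peak was lowest on chromosome 16 (10.8%) and chromosome 3 (13.96%), and ran from 18% to 22.2% on the other 17 chromosomes. The same chromosomes had the strongest mESC peaks, with a median of 100.6 scaled reads on chromosome 16 and 96.9 on chromosome 3, and on them 44.6% and 40.0% of mESC peaks had no RMES peak. The part of this difference in the chromosome shares was not tested. The mESC libraries were counted only in mESC peaks, so reads below the calling threshold at RMES-only peaks were not analysed here. The deposited RMES and mESC lists also carry different filter tags, and 31002 autosomal mESC peaks had no RMES peak.

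Mouse and rat Cdx2 gave similar signal at most RMES-only peaks. The log2 ratio of mCdx2 to rCdx2 scaled reads (with 1 read added) had a median of -0.00084, and its 5th to 95th percentile ran from -0.80 to 0.80. More than 2-fold higher with mCdx2 were 305 RMES-only peaks (2.28%), where 0.977% of all RMES peaks were so. With rCdx2 it was 294 peaks (2.20%), where 1.11% of all RMES peaks were. Both shares were lower among strong peaks. At 100 scaled reads or more, 6 and 3 of 745 RMES-only peaks (0.805% and 0.403%) passed 2-fold, where 0.156% and 0.198% of all RMES peaks of that strength did. With 1 library for each construct there is no replicate to set these differences against, and a ratio of low counts spreads by counting alone.

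**Figure D2:**
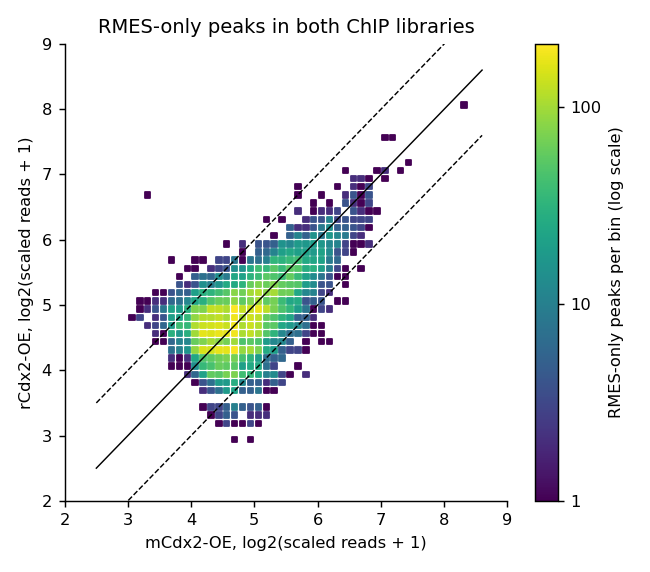
RMES-only peaks in both RMES ChIP-seq libraries: log2(scaled reads + 1) with mCdx2 on the x axis and with rCdx2 on the y axis, coloured by the number of peaks per bin on a log scale. The solid line marks equal signal and the dashed lines a 2-fold difference, which 305 and 294 peaks pass, most of them at low counts.

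One RMES-only peak stood far from the rest. The peak at chr19:3441583-3442174, 27334 bases from the start of the neuropeptide gene Gal, had 10 mCdx2 reads and 92 rCdx2 reads, a log2 ratio of -3.42 with an exact binomial 95% counting interval of -4.67 to -2.62. Its central 200 bases were a tandem array: at a shift of 60 bases, 98.6% of positions carried the same letter, and no Cdx2 motif was found. The next lowest ratio was in an intron of Unc80, a sodium leak channel subunit, with 14 and 46 reads (log2 ratio -1.995, -3.06 to -1.19). In the other direction, an intron of Ncoa2, a nuclear receptor coactivator, had 63 and 12 reads (1.95, 1.12 to 3.06). An intron of the growth factor gene Fgf14 had 41 and 8 reads (1.88, 0.88 to 3.30). The ratios have 1 read added to each scaled count, whereas the intervals come from the counts without it. These extremes were picked for their ratios, and the intervals cover counting error only.

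RMES-only peaks mostly lay outside the accessible chromatin of mESCs. Of the 13355, 293 overlapped an mESC ATAC peak (2.19%, Wilson 95% interval 1.96% to 2.46%), against 18.8% (18.5% to 19.1%) of shared peaks and 23.1% of mESC peaks without an RMES peak. The groups were apart at each strength: in every bin from 30 scaled reads up, the share was 1.74% to 3.21% in RMES-only peaks and 14.6% to 25.9% in shared peaks. The centre of the peak was inside an ATAC peak for 1.33% of RMES-only peaks. Positions 2000 bases to either side of the same centres were inside one for 2.73% and 2.52%, and positions 10000 bases away for 2.29% and 2.53%. At shared peaks the centre stood at 16.1% and the positions 2000 bases away at 3.29% and 3.18%. ATAC peaks covered 3.91% of the autosomal bases. No ATAC-seq of RMES cells was analysed here, so these shares describe accessibility in mESCs alone, and all such intervals cover counting error only. The selection also left out sites bound by Cdx2 in mESCs, the cells of this ATAC-seq. How much of the contrast with shared peaks follows from the selection was not tested.

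**Figure D3:**
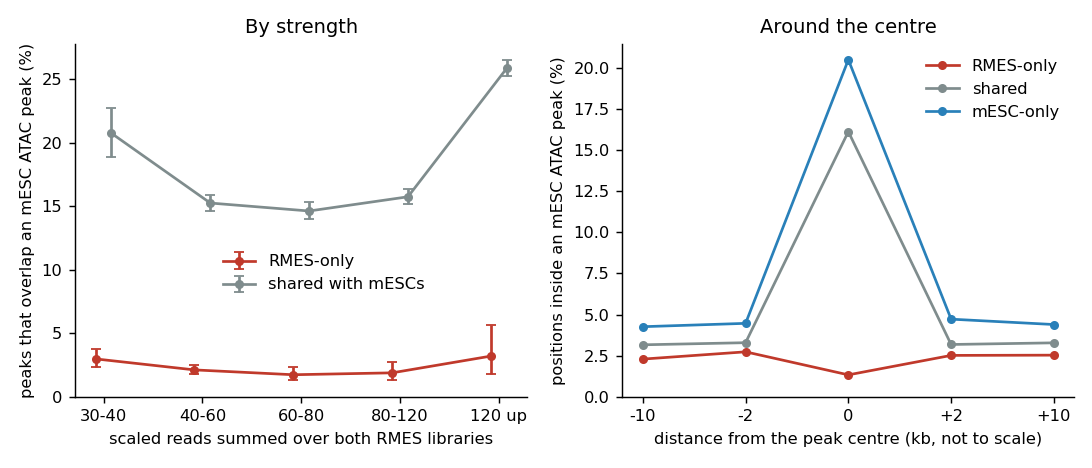
Overlap with mESC ATAC peaks: left, the percentage of RMES peaks that overlap one, by scaled reads of the peak, with Wilson 95% intervals; right, the percentage of positions inside an ATAC peak at the peak centre and 2 and 10 kb to each side. From 30 scaled reads up, RMES-only peaks stay at or below 3.21% in each bin, and their centre (1.33%) is below the positions beside it. RMES-only peaks were selected for having no Cdx2 peak in mESCs, the cells of the ATAC-seq.

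Where RMES-only peaks did meet ATAC peaks, these opened less often than those under shared peaks and about as often as ATAC peaks in general. An ATAC peak was called opened or closed at more than a 2-fold change and at least 40 scaled reads, from 1 library on each side. Opened ATAC peaks overlapped 31 RMES-only peaks (0.232%) and 8.34% of shared peaks, whereas closed ones overlapped 0.285% and 0.280%. Of the 297 ATAC peaks under RMES-only peaks 10.4% opened, of the 10323 under shared peaks 43.4% and of all 119304 autosomal ATAC peaks 8.95%. The median log2 ratio of mCDX2 OE to WT was 0.26, 2.02 and -0.16. The contrast with shared peaks carries the same limit of the selection here. The WT signal of the ATAC peaks had medians of 31.8 scaled reads under RMES-only peaks and over all ATAC peaks, and of 9.42 under shared peaks. Of the 31, the strongest was chr16:55239025-55239566 in an intron of Zpld1, with 115 and 68 ChIP reads. Its ATAC peak had 2 reads in WT mESCs and 71 with mCdx2. A peak at chr3:19640384-19640720, 3922 bases from the start of Trim55, a muscle ubiquitin ligase, had 68 and 51 ChIP reads and 2 motifs. It met only the edge of an ATAC peak with 14 and 289 reads, which ended at base 19640515. Both motifs lay past that end, outside the ATAC peak.

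The Cdx2 motif was frequent at the centres of RMES-only peaks and less so at the centres of strong ones. The central 200 bases held it in 5252 of 13355 (39.3%, 38.5% to 40.2%), against 43.0% of shared peaks, 39.4% of mESC-only peaks and 10.5% of windows 2000 bases to either side of RMES-only peaks. By single motif, the shares were 23.8% for CAATAAA, 12.9% for CCATAAA and 7.84% for GTAATAAA, and 6.02%, 3.61% and 1.21% beside the peaks. From 40 to 60 scaled reads 44.1% of RMES-only peaks held a motif, and from 120 up 23.03% (79 of 343). Shared peaks went from 50.1% to 36.8% between the same bins. Stronger peaks were also longer, so the central 200 bases covered less of them. Median lengths in these bins were 252 and 618 bases for RMES-only peaks and 255 and 545 for shared peaks. The parts of strength and length in the fall were not separated. All 3 motifs end in ATAAA. The median GC content was 35% in RMES-only peaks, 34.5% in shared peaks and 40.5% in the windows beside RMES-only peaks.

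**Figure D4:**
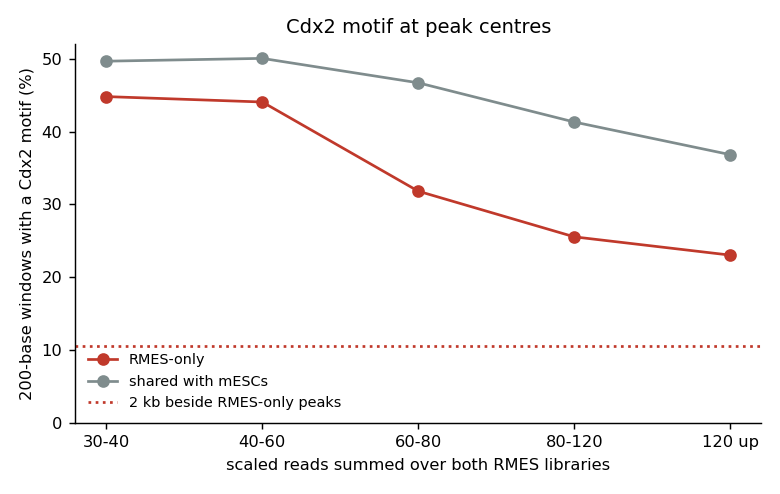
Percentage of 200-base windows at peak centres with a Cdx2 motif, by scaled reads of the peak. RMES-only peaks fall from 44.1% at 40 to 60 scaled reads to 23.03% at 120 and over, shared peaks from 50.1% to 36.8%, and the dotted line is the 10.5% found 2 kb beside RMES-only peaks. Stronger peaks are longer, so the 200 bases cover less of them.

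Motifs of other factors were scarce and close to the level beside the peaks. The AP-1 motif TGANTCA was in 6.93% of RMES-only windows and 5.93% of those beside them, the TEAD motif GGAATGT in 2.88% and 2.73%, and the GATA motif AGATAAG in 2.43% and 3.15%. The POU octamer ATGCAAAT was in 1.67% and 1.92%. GC-rich motifs were rarer at the peaks: GCCNNNGGC of TFAP2 in 0.988% and 2.15%, AGGGGGC of the CTCF core in 0.674% and 1.36%, and CCGGAAG of ETS factors in 0.150% and 0.419%. In shared peaks the TEAD motif was in 3.94% and in mESC-only peaks in 3.89%. Over 50% of the window was repeat-masked in 12.6% of RMES-only peaks, 9.13% of shared peaks and 24.2% of the windows beside RMES-only peaks. By their centres, 54.2% of RMES-only peaks were intergenic, 41.9% intronic, 3.10% exonic and 0.809% within 1 kb of a protein-coding gene start (GENCODE M21), where shared peaks had 47.9%, 47.4%, 3.66% and 1.01%. The median distance to such a start was 108387 bases against 96925.

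Genes near RMES-only peaks were followed in the RNA of the mouse allele. Total counts were 36166038 to 41418817 per RMES library and 12967233 to 94686029 per mESC library, the WT mESC libraries being the deepest. The mouse Cdx2 count was 4187 and 4541 in the WT RMES libraries, 40590 in mCDX2 OE and 186 in rCDX2 OE (129, 126, 969 and 4.46 CPM, that is, counts scaled to library size). Reads of the rat transgene are not in this table. In mESCs Cdx2 was at 1.40 and 1.25 CPM in WT and 67.3 to 128 after induction, so by these counts WT RMES cells already stood at or near the top of the induced mESC range. The measures are not alike, since mESC reads were aligned to the mouse genome alone and RMES reads were assigned to 1 of the 2 genomes. The pluripotency markers Pou5f1, Sox2, Nanog, Zfp42 and Esrrb were all present and summed to 3926 and 3939 CPM in WT RMES and 1548 and 1524 in induced cells. Of 5 fibroblast markers, summing to 7.05 to 25.7 CPM, Dcn was at 0 in all 4 libraries and Lum had at most 2 counts. Col1a1 was present, at 15.1 and 18.3 CPM in WT and 3.42 and 6.28 after induction. Col1a2 went from 4.65 and 6.19 to 0.67 and 0.55 CPM, and Thy1 the other way, from 1.11 and 1.17 to 2.96 and 2.54 CPM. The 3 neural markers summed to 71.2 and 66.6 CPM in WT and to 22.8 and 18.6 in induced RMES cells. Sox1 and Tubb3 fell, whereas Pax6 had 0 counts in both WT libraries and 18 and 7 after induction. The part of the fibroblast and neural markers in the results was not tested.

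A gene was linked to a peak that overlapped the 60 kb window centred at the gene's start. By this measure 4841 RMES-only peaks (36.2%) were near any gene of the table, and 6910 genes were linked to at least 1. Most of these, 5669, also had an mESC peak in the window, and 1241 had none. Counts were compared with edgeR's quasi-likelihood test between WT RMES and the mCDX2 OE and rCDX2 OE libraries as 1 group, and a gene was called at a Benjamini-Hochberg adjusted p below 0.05 and a fold above 2. The filter on low counts kept 3100 of the 6910 linked genes.

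The genes near RMES-only peaks were called about as often as all genes tested. Of the 3100 linked genes tested, 822 (26.5%) were higher after induction, where 28.0% of all 15975 genes tested were, and 474 (15.3%) were lower, where 16.0% of all were. Among the 495 genes with an RMES-only peak and no mESC peak, 36.2% were higher and 13.5% lower. Among the 3289 genes with neither kind of peak the shares were 36.3% and 13.7%, and among the 9586 with an mESC peak and no RMES-only peak 25.7% and 17.1%. The median log2 fold changes were 0.30, 0.33 and 0.02. Genes linked to 3 or more RMES-only peaks (55 tested) were higher in 25.5% and lower in 9.09%. In windows of 10 kb, 24.8% of 614 linked genes were higher and 15.0% lower, and in windows of 200 kb it was 28.5% and 15.4% of 7815.

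In mESCs the linked genes likewise followed the other genes. Of 2913 linked genes tested, 553 (18.98%) were called higher and 424 (14.6%) lower, where 18.2% and 16.7% of all 15287 genes were. For the 448 genes with an RMES-only peak and no mESC peak, 19.9% were higher and 16.7% lower. The response itself was compared between the cell types in 1 model of all 10 libraries (interaction term, adjusted p below 0.05). Of 3282 linked genes, 767 (23.4%) responded more positively in RMES, where 27.9% of all genes did, and 919 (28.0%) more negatively, where 25.1% did. For the genes with an RMES-only peak and no mESC peak these shares were 34.9% and 18.5%, and with neither peak 38.7% and 14.8%. Before induction 396 linked genes (12.1%) were higher in WT RMES than in WT mESCs, where 10.9% of all genes were, and 518 (15.8%) were lower, where 19.5% were. Cell type and counting by allele differ together here and cannot be told apart.

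Among the genes with an RMES-only peak and no mESC peak, 99 were higher and 42 lower with at least 50 counts on average and with both induced libraries on 1 side of both WT libraries. The gene with the largest rise was Htr1d, a serotonin receptor, with 0 and 1 counts in WT and 157 and 206 after induction, 296 times the WT level with an exact counting interval of 52.8 to 11721. Pear1, a receptor of platelets and endothelium, went from 1 and 3 counts to 376 and 400 (log2 fold change 7.23, SE 0.32). All 19 genes reported under the rule had WT and induced libraries that did not overlap, as the rule required.

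**Figure D5:**
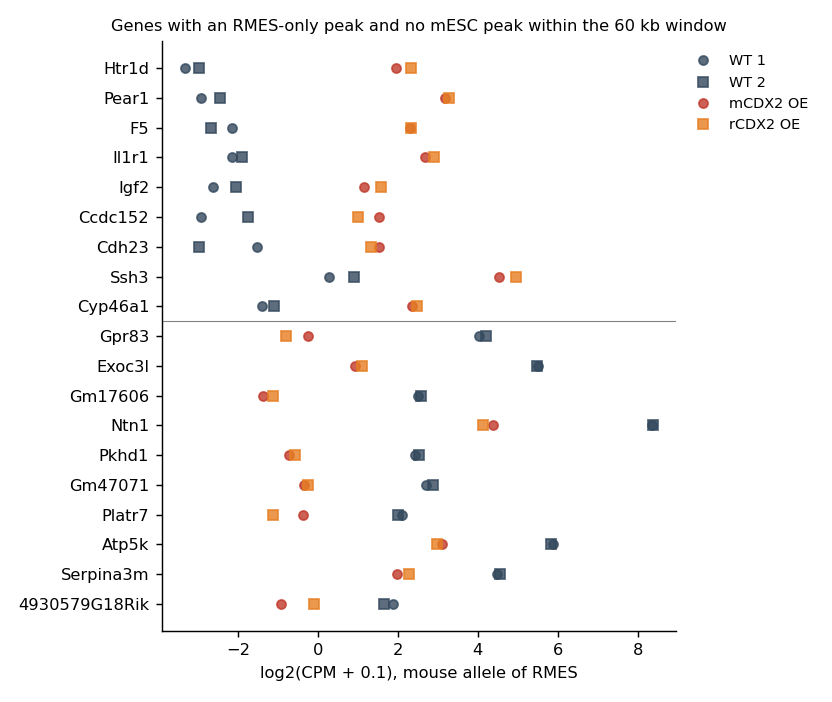
Mouse-allele RNA of the 19 genes reported under the rule, all with an RMES-only peak and no mESC peak in the 60 kb window: log2(CPM + 0.1) in each of the 4 RMES libraries. The 9 genes above the line were higher and the 10 below it lower after induction, and the rule itself required the induced libraries to lie on 1 side of both WT libraries.

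Signalling genes were among those that rose. Il1r1, the interleukin 1 receptor, had 0.12 and 0.17 CPM in WT RMES, 6.32 with mCdx2 and 7.32 with rCdx2 (log2 fold change 5.51, SE 0.29). Its RMES-only peak lay at chr1:40203231-40203473, 21728 bases before the start, with 30 and 16 reads and 1 motif. Igf2, the imprinted fetal growth factor, had 0.062 and 0.14 CPM in WT and 2.12 and 2.89 after induction (4.57, SE 0.43). In mESCs it rose further, from 0.088 and 0.19 CPM to between 16.6 and 24.1, and the difference passed the test (interaction -2.67, adjusted p = 0.022). The RMES-only peak near Igf2 was intergenic at chr7:142643046-142643383, with 32 and 32 reads and no motif. Ssh3, a phosphatase that activates cofilin, had 36 and 63 counts in WT and 965 and 1291 after induction (log2 fold change 4.22, SE 0.20). F5, coagulation factor V, was linked to 2 RMES-only peaks, both with a motif, and went from 0.12 and 0.056 CPM to 4.79 and 4.93 (5.74, SE 0.35). The others that rose by the rule were Ccdc152, Cdh23 and Cyp46a1, with log2 fold changes of 4.01 to 4.28. Several of these rises rest on at most 8 counts in a WT library, and leaving out a WT library moved their size but not their call. Without the first WT library the log2 fold change was 7.12 for Htr1d, 6.36 for F5, 6.38 for Cdh23 and 3.55 for Ccdc152. Without the second it was 10.39 for Htr1d, 8.08 for Pear1, 5.26 for Igf2, 3.37 for Cdh23 and 6.09 for Ccdc152.

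The gene with the highest level among those that fell was Ntn1, which encodes the axon guidance cue netrin. It had 325.7 and 330.3 CPM in WT RMES and 20.6 and 17.4 after induction (log2 fold change -4.11, SE 0.08), and it fell in mESCs too, from 220.1 and 220.8 CPM to between 7.92 and 10.2. The fall was slightly smaller in RMES (interaction 0.36, adjusted p = 0.0495). Ntn1 had 2 RMES-only peaks, 1 in its intron at chr11:68396652-68396927 (21 and 38 reads, 2 motifs), 4034 bases after the start, and 1 upstream at chr11:68416344-68416656 (39 and 20 reads). Gpr83, a G protein-coupled receptor, went from 16.2 and 18.4 CPM to 0.74 and 0.48 (-4.82, SE 0.19). WT mESCs held only 0.70 and 0.64 CPM of Gpr83, and the interaction was -4.10 (adjusted p = 2.31e-06). Exoc3l went from 44.9 and 44.2 CPM to 1.79 and 2.03 (-4.54, SE 0.11). The others that fell were Gm17606, Pkhd1, Gm47071, Platr7, Atp5k, Serpina3m and 4930579G18Rik, with log2 fold changes of -4.14 to -2.38. Gm17606 and 4930579G18Rik shared the same RMES-only peak, and Serpina3m belongs to a cluster of near copies.

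Most of these genes also changed in mESCs, where no peak was called in the window. Of the 19, 18 could be tested in mESCs, all 18 had the same sign and 16 were called. Their 20 RMES-only peaks had no overlap with an mESC ATAC peak, and 9 held a motif. Since the genes were picked for their response in RMES, the RMES values are a description.

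Most genes with the most or the strongest RMES-only peaks had little RNA or were not called. The genes with the most, 5 each, were Slf1, 2210408I21Rik, Tinag, Gm19541 and Ighv1-85, of which the first 2 passed the filter. Slf1, a DNA repair factor, had 26.5 and 27.6 CPM in WT RMES and 23.7 and 24.4 after induction (log2 fold change -0.17, adjusted p = 0.066). For 2210408I21Rik the values were 3.95 and 4.66 against 2.88 and 2.87 CPM (-0.58, adjusted p = 0.010), a change below 2-fold. Eif4g2, in whose exon 1 of the strongest peaks lay, had 1112 and 1087 CPM in WT and 846.1 and 786.6 after induction (-0.43, SE 0.05). The Ighv and olfactory receptor genes linked to the 10 strongest peaks had 0 counts in all 4 libraries, which allows up to 3 counts per library. Ccl28, a chemokine, started 9600 bases from chr13:119613926-119614512 (177 and 120 reads), the strongest RMES-only peak over an ATAC peak, which closed with mCdx2 (29 and 13 reads). It had 0.50 to 0.77 CPM in all 4 libraries and did not pass the test, whereas the noncoding gene Gm48265 at the same peak fell from 31 and 40 counts to 15 and 13 (log2 fold change -1.62, SE 0.37).

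Genes of the 5 marker lists together had an RMES-only peak in the window about as often as genes in general. It was 24 of 107 list entries (22.4%), against 21.6% of all 32053 genes with a position. Esrrb and Cdx1 were each in 2 lists and were counted in both. The lists differed, and 19 of the 24 were posterior, Cdx and Hox genes. None of the 13 naive pluripotency genes and none of the 16 intestinal genes with a position had one in its window. Of 21 trophoblast stem cell genes, Tfap2a and Plet1 had one, both beside mESC peaks. In this list 20 genes passed the filter, linked or not, of which 11 were called higher and 2 lower. Tfap2a, a trophectoderm transcription factor, fell from 51.9 and 49.5 CPM to 6.96 and 8.75 (log2 fold change -2.69, SE 0.10). In mESCs it was 3.65 and 3.85 CPM in WT and 5.56 to 6.92 after induction, and the interaction was -3.42 (adjusted p = 3.74e-08). Plet1, a surface protein of trophoblast progenitors, rose from 3.18 and 3.07 to 11.9 and 12.8 CPM (1.98, SE 0.14). Of 9 primitive endoderm genes, Sox17, Dab2 and Foxa2 were linked, and Dab2, an endocytic adaptor, went from 0.25 and 0.28 to 4.65 and 4.11 CPM (4.04, SE 0.29). Foxa2, an endoderm transcription factor, had 2 RMES-only peaks and no mESC peak and rose from 0.15 and 0.14 to 0.69 and 0.55 CPM (2.06, SE 0.48), and Sox17 had 0.26 to 0.56 CPM in all 4 libraries and did not pass.

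The list with the most links was that of posterior, Cdx and Hox genes, 19 of 48, all with mESC peaks as well. Of the 16 that passed the filter, 4 rose and 6 fell, where 28.0% and 16.0% of all genes did, and the median log2 fold change was -0.21 against 0.07 over all genes tested. In the whole list, linked or not, 41 genes passed the filter, of which 10 were called higher and 17 lower. The 7 linked HoxA genes, Hoxa3 to Hoxa7, Hoxa9 and Hoxa10, shared 1 RMES-only peak, chr6:52213307-52213569, with 70 and 67 reads, 102 bases before the start of Hoxa3. Its central window held TCATAAA, a form not counted, but none of the counted motifs. It overlapped an mESC ATAC peak with 27 reads in WT and 61 with mCdx2 (log2 ratio 0.72), under the 2-fold threshold. Hoxa9, a posterior patterning gene, had 43.9 and 46.7 CPM in WT RMES and 3.27 and 3.95 after induction (-3.65, SE 0.11). In mESCs it ran the other way, from 0.029 and 0.024 CPM to between 14.9 and 23.7, and the interaction was -13.07 (adjusted p = 8.29e-10). Hoxa7 and Hoxa10 fell on the mouse allele from 66.3 and 73.1 to 5.72 and 3.59 CPM and from 24.5 and 22.4 to 0.81 and 1.05. They rose in mESCs by log2 fold changes of 4.27 and 6.44. The WT RMES values lie above those of all 4 induced mESC libraries, and mouse Cdx2 was at 129 and 126 CPM in the same WT RMES libraries. The part of that Cdx2 level in the response was not tested.

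T and Evx1, early posterior mesoderm genes, fell to 3 counts or fewer on the mouse allele. T had 440 and 516 counts in WT RMES and 3 and 0 after induction, 391 times higher in WT with an exact counting interval of 133.3 to 1899. Evx1 had 315 and 352 counts against 3 and 0, a ratio of 272.7 (92.9 to 1326). Without the mCDX2 OE library the log2 fold change was -12.01 for T and -11.49 for Evx1, and without the rCDX2 OE library -7.54 and -7.02. In mESCs T went from 2.07 and 2.31 CPM to between 0.23 and 0.55. The linked HoxD genes shared 1 RMES-only peak as well, chr2:74683184-74683387 with 26 and 19 reads, in an intron and with no motif. Of these, Hoxd3, Hoxd4 and Hoxd8 rose: Hoxd4 went from 0.28 and 0.39 to 11.5 and 17.6 CPM (5.42, SE 0.29) and Hoxd8 from 1.42 and 1.70 to 7.34 and 9.14 (2.39, SE 0.19). Hoxd3 went from 2 and 1 counts to 73 and 88, a ratio of 43.8 (14.7 to 214.4, log2 fold change 5.35, or 5.95 without the first WT library). Hoxd9 changed by less than 2-fold (0.53, adjusted p = 0.0478), and Hoxd13 did not pass. Tbx6, a mesoderm factor, rose from 0.19 and 0.056 to 0.74 and 1.05 CPM (2.90, SE 0.53, or 3.92 without the first WT library and 2.24 without the second). Hoxa6 was called lower with 14 and 18 counts in WT and 3 and 7 after induction, and this call was lost with DESeq2, without the second WT library and without the mCDX2 OE library, and its log2 fold change was -1.94 with all 4 libraries and -2.65 without the rCDX2 OE library. In bulk RNA, fewer cells of a type and less RNA per cell cannot be told apart.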

How the data were processed

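ChIP-seq reads were, per the study's methods, trimmed with cutadapt, aligned with Bowtie2 and, in RMES, aligned to mm10 and rn6 and assigned to a genome by edit distance. Both constructs' reads of a cell type were pooled for MACS2, so no peak belongs to 1 library. The authors deposited raw read counts per peak or gene (featureCounts 1.6.0, per the file headers). RNA reads were aligned with STAR 2.7.0d. Columns of reads were matched to constructs by the letters M and R in their names, an inference from abbreviations. Another 14 deposited RNA columns, of rat Cdx2 variants in mESCs, were not used.

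Here, each ChIP or ATAC library was scaled to the average library's sum over all peaks of its table. RNA was tested with edgeR 4.0.16 (quasi-likelihood, TMM, filterByExpr) over all genes of a table, and DESeq2 1.42.0 was an alternative. Both were run in R 4.3.3. The edgeR fits were tested on simulated data with 200 genes changed by a log2 fold change of 2. Of these 100% were recovered in each design, with 2 to 4 false calls. Smaller changes, and changes in the least expressed genes, were not simulated. The design gave 2 RMES libraries a side, mCDX2 OE and rCDX2 OE serving as replicates, as in the study. Of 34923 gene names, 33959 had 1 position in GENCODE M21, and 32053 of these were autosomal. Motifs were searched in the RefSeq GRCm38 sequence. Genes were named by a rule: the 10 highest and 10 lowest called genes with an RMES-only peak and no mESC peak (mean of 50 counts), the 5 genes with the most such peaks, those linked to the 10 strongest, and list genes. A gene the rule picked is not reported here. The peaks over opened ATAC peaks, at HoxA and at HoxD were picked with their values known. The peaks, gene lists and tests were chosen with earlier results of these data known.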

Additional observations from a re-analysis of the deposited data

Results flagged for a closer look

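The response to Cdx2 differed between the mouse allele of RMES cells and mESCs, by the interaction test, for 767 genes linked to an RMES-only peak that responded more positively in RMES and for 919 that responded more negatively. These are 23.4% and 28.0% of the linked genes tested, where 27.9% and 25.1% of all genes tested passed. Among the 19 genes named for their response in RMES, 15 passed the same test, and their log2 differences (RMES minus mESC) are given here as values. More positive in RMES were Ccdc152 (4.06), Pear1 (3.85), Htr1d (3.83), Il1r1 (3.35), Cdh23 (3.17), Ssh3 (2.71) and F5 (2.497). So were 4930579G18Rik (1.97), Cyp46a1 (1.40), Gm47071 (0.85) and Ntn1 (0.36), of which all but Cyp46a1 fell less in RMES than in mESCs. More negative in RMES were Gpr83 (-4.10), Igf2 (-2.67), Exoc3l (-1.74) and Atp5k (-1.57). The genes were picked for a large response in RMES, so a difference towards a larger RMES response is no independent result, and differences of genes with few counts in 1 group depend on the prior count of the fit.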

How the results depend on the processing

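The number of RMES-only peaks stayed between 11155 and 13979 under the 3 alternatives. The share over an mESC ATAC peak was 1.33% by the peak's centre and 1.31% where the ATAC peak covered 50% of it, and for opened ATAC peaks 0.142% by either measure and 0.479% without ATAC scaling. Peaks stronger with mCdx2 numbered 1081 without scaling, 149 with a pseudocount of 5 and 1440 at 1.5-fold, and those stronger with rCdx2 46, 128 and 1514. The Cdx2 motif was in 48.0% of whole RMES-only peaks and in 60.1% of whole shared peaks, which are longer. CCATAAA alone was in 12.9% of the central windows of RMES-only peaks. Linked genes called higher on the mouse allele numbered 152 in 10 kb windows, 2227 in 200 kb windows and 1271 without a fold threshold, and those called lower 92, 1205 and 1220. These follow from the number of genes a window or threshold takes in. Leaving out 1 RMES library gave 775 to 795 higher and 457 to 561 lower genes, and 1384 to 1469 with a different response from mESCs. Leaving out 1 mESC replicate number gave 537 to 545 and 415 to 420, fitted as induced against WT with a lone WT library taken to vary like the others. Replicate numbers in mESCs named no shared culture, and the correlation of same-numbered deviations was -0.0036 and -0.014 for WT with the induced groups and 0.44 between these, so they were not treated as pairs. With the replicate block 551 linked genes were higher and 434 lower in mESCs. Other size factors, DESeq2 and no filter kept each count within 1.5 times. Of 270 refitted fold changes of 45 named genes, 267 kept their side of the threshold, and the 3 others were of Hoxa6. Depth limits single peaks most, with medians of 29 and 23 reads.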
